A study of Glycine max with 30 samples.

Results

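Accessible chromatin regions (ACRs) of soybean leaves were compared between ZT4 and ZT0, the first 2 samplings of a circadian time course, so that the comparison covered the opening 4 h of the subjective day. The 3 libraries labelled ZT4 and the 3 labelled ZT0 were taken, together with the merged ACR list of each time point, and the ACRs were the joined regions of those 2 merged lists. This gave 22443 regions, out of 35922 in the joined lists of all 6 time points, and 6 of the 30 samples of the series. The choice used the labels and the merged lists, so that presence in a merged list is part of the choice.

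The series followed chromatin accessibility with ATAC-seq, in which a transposase cuts DNA that is not packed by nucleosomes and the fragments are sequenced. Both groups were first trifoliate leaves of wild-type Williams 82 (Ws82) plants with no mutation or agent added, grown in short days (8 h light, 16 h dark), moved to constant light at 25 °C and sampled from the second day of constant light on. The labels give no difference between ZT4 and ZT0 other than the time, and the light was on at both samplings and in the hours before. Other wild-type libraries of the same course were taken at ZT8, ZT12, ZT16 and ZT20 (3 each). They were used only to see where the ACRs that differed were called later in the day. The study numbers the same samplings 1 cycle later than the labels. L, M and R mark biological replicates of a time point, the study used 3 plants for an experiment, and 12 further samples were not analysed here.

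The plant circadian clock is a network of transcription factors that repress and activate each other. The MYB-like factors LHY and CCA1 accumulate around dawn and repress genes of the evening, and PRR proteins then take over through the day in turn, so early morning is a time when many clock targets change state. Such factors bind in open stretches of promoters and distal elements, which appear in ATAC-seq as peaks, and a higher peak means that more fragments came from that stretch. A leaf holds many cell types, so fewer nuclei with a region open and a region less open in each nucleus cannot be told apart. Regions are named by position on the Wm82.a2.v1 assembly because no gene annotation of that build was used here, and the time labels could not be checked against clock genes.

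The library lists differed within each time point as well as between them. The ZT4 lists held 16424, 11432 and 15028 peaks in replicates L, M and R, against 7668, 13268 and 9563 peaks in the ZT0 lists. ZT4 was higher by 4128 peaks in the mean, but ZT4 M had fewer peaks than ZT0 M, so the groups overlapped (exact permutation test, two-sided, p = 0.2, adjusted p = 0.4 over 8 library measures). With 3 libraries against 3 this test has 10 splits and cannot give a p below 0.1. The peaks of ZT4 covered 4.89, 3.01 and 4.49 Mb, those of ZT0 covered 2.40, 3.96 and 2.94 Mb, a mean difference of 1.03 Mb (exact p = 0.2). With equal numbers of peaks the difference was 0.030 Mb (exact p = 0.9), and it was 1.59 Mb without ZT4 M and 0.653 Mb without ZT4 L. The mean peak width was 298, 264 and 299 bp at ZT4 and 314, 298 and 307 bp at ZT0.

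ZT4 M stood apart from the other ZT4 libraries, and ZT0 L had the shortest list of all. The median peak of ZT4 M was 223 bp wide, against 253 bp in ZT4 L and 254 bp in ZT4 R, and the ZT0 medians were 267, 252 and 261 bp in L, M and R (exact p = 0.3). The median peak summit held 8 fragments in ZT4 M, 9 in the other 2 ZT4 libraries and 9 or 10 in the ZT0 libraries. Background coverage was 0.490, 0.461 and 0.426 fragments per base at ZT4 and 0.513, 0.398 and 0.542 at ZT0 (exact p = 0.7). It was recovered from the peak values, and the part of sequencing depth in the number of peaks was not tested. How far these library differences enter the comparison of calls was not tested by itself, and the counts of gained and lost regions are therefore given again with equal numbers of peaks.

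**Figure D1:**
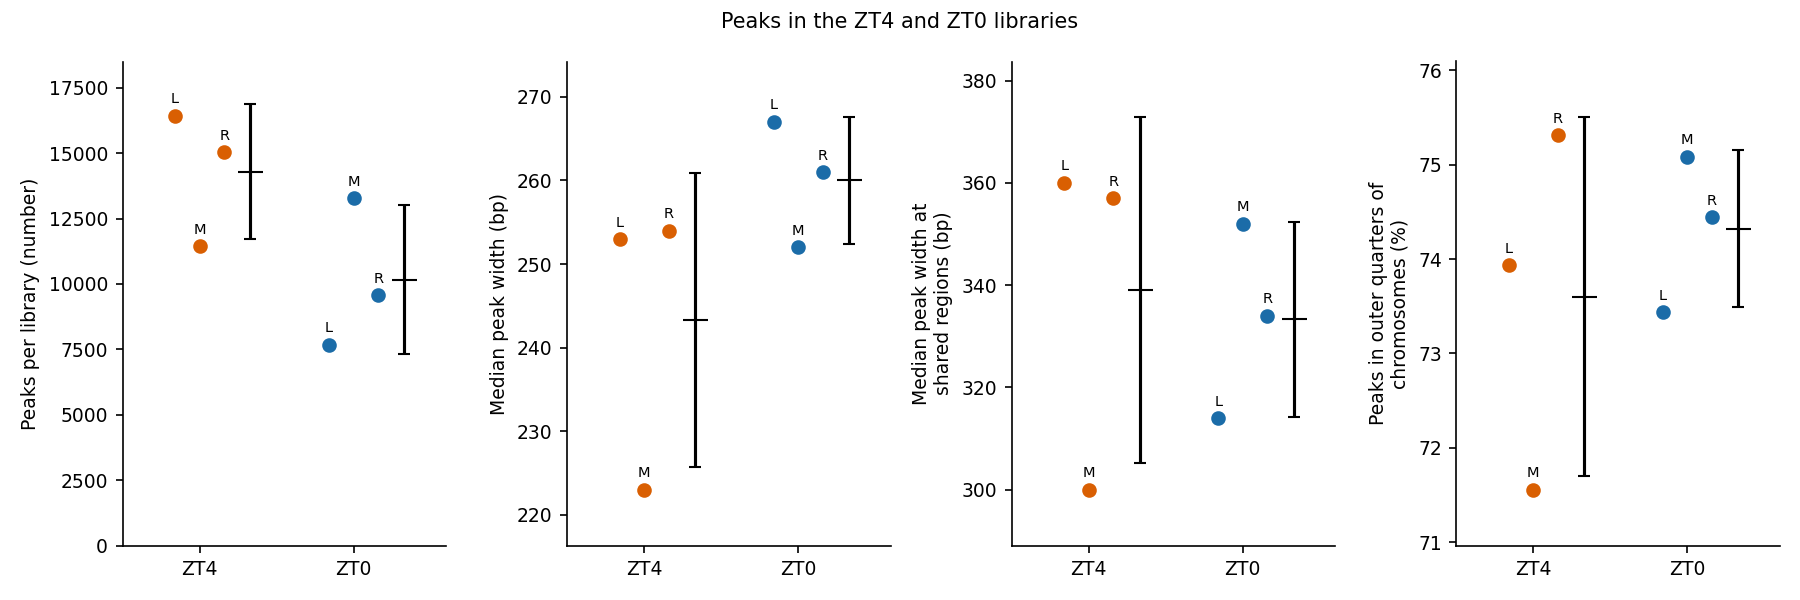
Number of peaks, median peak width (bp), median peak width at the regions called in all 6 libraries (bp) and share of peaks in the outer parts of chromosomes (25% at either end) (%) in the 3 ZT4 libraries (orange) and the 3 ZT0 libraries (blue), each point a library with its replicate letter, and the bars the mean and SD. In every panel the ZT4 and ZT0 points overlap in range, and ZT4 M, with a median width of 223 bp, lies lowest in all panels but the first.

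Position along the chromosomes did not differ beyond the spread between libraries. Chromosome arms carry most genes in soybean, and 73.9%, 71.6% and 75.3% of ZT4 peaks lay in the outermost parts (the 25% next to each end), against 73.4%, 75.1% and 74.4% of ZT0 peaks (exact p = 0.7). Where all 6 libraries had a peak, its median width was 360, 300 and 357 bp at ZT4 and 314, 352 and 334 bp at ZT0 (exact p = 0.8). The summits of the same ACR in a pair of libraries lay a median of 33 to 36 bp apart within ZT4, 36 to 37 bp within ZT0 and 33 to 39 bp between the time points. The between-pair mean exceeded the within-pair mean by 0.56 bp (exact permutation test, one-sided, p = 0.2).

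Replicates of a time point shared somewhat more sequence with each other than with the other time point. The base-pair Jaccard index, the shared length of 2 lists over their joined length, averaged 0.341 within ZT4 and 0.372 within ZT0, against 0.317 between the time points. The excess of within over between pairs was 0.0395, the largest of the 10 splits, with an exact one-sided p = 0.1 that is the smallest this design allows (adjusted p = 0.4). With the 7668 highest peaks of each library, the means were 0.422 within ZT4, 0.416 within ZT0 and 0.377 between them. Single pairs overlapped, since ZT4 L and ZT4 M shared 0.310 and ZT4 R and ZT0 M shared 0.352 with all peaks.

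Per the study's methods, a merged list came from a call on the pooled reads of a time point, kept where the replicates had the peak too, and it has no replicates of its own. The ZT4 list was the longer. ZT4 had 18794 regions with a summed length of 7.13 Mb and a median width of 332 bp, and ZT0 had 13675 regions with a summed length of 5.40 Mb and a median width of 343 bp. Of the joined regions 9957 (44.4%) were in both lists, 8797 (39.2%) in the ZT4 list only and 3689 (16.4%) in the ZT0 list only. Most regions of 1 list rested on few libraries. Of the ZT4-only regions 5796 (65.9%) had a peak in just 1 ZT4 library, and 7726 (87.8%) had a peak in 0 ZT0 libraries. Of the ZT0-only regions 2673 (72.5%) had a peak in just 1 ZT0 library, and 2952 (80.0%) had a peak in 0 ZT4 libraries. Presence in a merged list of 1 time point was thus mostly not repeated by the replicates: 856 ZT4-only and 298 ZT0-only regions had a peak in all 3 libraries of their time.

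Regions present in both merged lists were slightly wider at ZT4. Among 9889 regions that matched 1 to 1, the median width was 382 bp at ZT4 and 365 bp at ZT0, with 55.5% wider at ZT4 and 42.5% wider at ZT0. Wide regions, by contrast, took a smaller share at ZT4, with 210 regions of at least 1000 bp at ZT4 (1.12%) and 217 at ZT0 (1.59%). The single-library lists had 0.444%, 0.280% and 0.472% of peaks that wide at ZT4 and 0.743%, 0.528% and 0.648% at ZT0, with no overlap between the groups (exact permutation test, two-sided, p = 0.1, a measure chosen after the data were seen). With equal numbers of peaks the shares were 0.939%, 0.417% and 0.861% at ZT4 and 0.743%, 0.900% and 0.809% at ZT0, which overlapped (exact p = 0.9).

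The widest ACRs were mostly open at both times. Of the 3 widest ZT4 regions, chr19:780905-782904 (2000 bp) had a peak in 3 ZT4 and 2 ZT0 libraries, and chr5:32149313-32151231 (1919 bp) and chr4:4493709-4495578 (1870 bp) had a peak in all 6, although the last was in the ZT4 merged list only. Of the 3 widest ZT0 regions, chr15:19589408-19592241 (2834 bp) and chr2:9307545-9309921 (2377 bp) had a peak in all 6 libraries, although the chromosome 15 region was in the ZT0 merged list only. The remaining region, chr4:3587251-3589528 (2278 bp), had a peak in 0 ZT4 and 3 ZT0 libraries and is described with the lost regions.

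Most regions were called in some but not all libraries of a time point. An overlap of 1 bp or more with a peak of a library counted as a call. All 6 libraries called 3563 regions (15.9%), and 573 regions (2.55% of 22443) were gained at ZT4, that is called in 3 of 3 ZT4 and 0 of 3 ZT0 libraries. Lost regions, called in 0 of 3 ZT4 and 3 of 3 ZT0 libraries, numbered 151 (0.673%). A region called in 1 ZT4 library and 0 ZT0 libraries was the commonest kind, with 5349 regions (23.8%), and 2306 regions (10.3%) were called in 0 ZT4 libraries and 1 ZT0 library.

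The excess of gained over lost regions turned when the lists were made equally long. With all peaks, gained regions were 79.1% of the 724 all-or-none regions (Wilson 95% interval 76.0 to 81.9%, which like the other intervals covers counting error only). With the 7668 highest peaks of each library, 208 regions were gained (0.927%) and 255 were lost (1.14%), so that gained regions were 44.9% (40.5 to 49.5%) and the direction of the excess turned. Of the 573 gained regions 125 (21.8%) were gained in both settings, which is 60.1% of the 208, and of the 151 lost regions 79 (52.3%) were lost in both, which is 31.0% of the 255. These counts moved when a library was left out, which also loosens the rule to 2 libraries at 1 time point. Without ZT4 M, 1641 regions were gained and 176 lost, and without ZT0 L, 689 were gained and 432 lost. For comparison, 903 were gained without ZT4 L and 979 without ZT4 R.

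**Figure D2:**
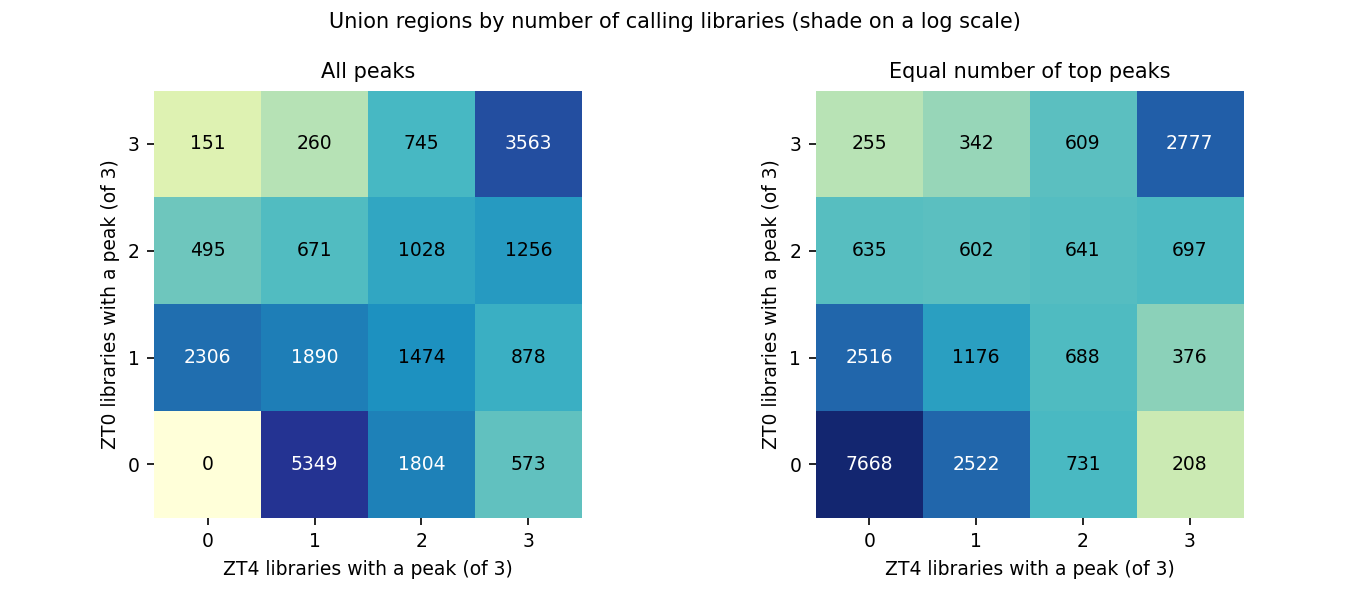
Number of the 22443 joined regions by how many ZT4 libraries (columns, 0 to 3) and how many ZT0 libraries (rows, 0 to 3) had a peak there, with all peaks (left) and with the 7668 highest peaks of each library (right), the shade following the number on a log scale. The lower right cell holds the gained regions (573 and 208), the upper left cell the lost regions (151 and 255) and the upper right cell the regions of all 6 libraries (3563 and 2777).

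Gained regions were narrower than lost regions in the median. Gained regions had a median width of 403 bp and 1.05% were at least 1000 bp wide, whereas lost regions had a median width of 559 bp and 11.9% were that wide. The regions of all 6 libraries had a median of 537 bp with 6.76% that wide, and all joined regions a median of 347 bp with 1.71%. In median width, lost regions were thus close to the regions open in every library and gained regions lay between these and the average region. In the share of wide regions, lost regions were above both and gained regions below both. With equal numbers of peaks the gap remained, with medians of 427 bp for the gained and 560 bp for the lost regions. These are widths of joined regions, and 95.7% of the regions of all 6 libraries were in both merged lists. With all peaks, gained and lost regions were each in 1. With equal numbers of peaks, 31.7% of gained and 56.1% of lost regions were in both merged lists. Joined regions of both lists had a median width of 441 bp, against 287 bp in the ZT4 list only and 293 bp in the ZT0 list only. The part of this in the width gap was not tested. Single peaks at lost regions had medians of 294, 324 and 284 bp in ZT0 L, M and R. At regions of all 6 libraries the medians there were 314, 352 and 334 bp. At gained regions they were 257, 215 and 245 bp in ZT4 L, M and R, against 360, 300 and 357 bp. The widths of the lists themselves choose which regions are seen, so these values are a description.

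With all peaks, gained regions came from the middle of the ZT4 lists. Ranked within a list from 0% for the highest peak to 100% for the lowest, their median percentile was 48.0 in ZT4 L, 55.1 in ZT4 M and 49.5 in ZT4 R, with 9, 7 and 9 fragments at the median summit. Lost regions had median percentiles of 63.9, 48.6 and 62.8 in ZT0 L, M and R, with 10, 12 and 11 fragments. The regions called in all 6 libraries were far higher, with medians of 13.8, 21.0 and 15.2 in ZT4 L, M and R and 27.5, 16.9 and 23.0 in ZT0 L, M and R. With equal numbers of peaks the library medians, still within the whole lists, were 27.9 to 37.2 for gained and 36.5 to 59.8 for lost regions, with 10 to 13 fragments for both.

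Gained and lost regions were spread over the genome, and the chromosomes with most and fewest of them changed with the number of peaks used. With all peaks, gained regions ranged from 1.76% of the joined regions of chromosome 3 (17 regions) to 3.80% of those of chromosome 19 (42 regions). Lost regions ranged from 0 on chromosome 5 to 1.34% on chromosome 2 (18 regions). With equal numbers of peaks, gained regions ranged from 5 on chromosome 14 to 17 on chromosome 6, with 10 on chromosome 19. Lost regions ranged from 6 on chromosome 3 to 25 on chromosome 8, with 9 on chromosome 5. Peaks tied in −log10 q at the cut were kept in chromosome order, and the part of this in the counts was not tested. In the outer parts of chromosomes (25% at either end) lay 77.1% of gained, 72.2% of lost and 75.1% of all joined regions with all peaks. With equal numbers of peaks the order of gained and lost turned, at 76.0% of gained and 78.4% of lost regions. Few lay beside a region of all 6 libraries, with 0.698% of gained and 3.31% of lost regions within 1000 bp of one, against 2.10% of all joined regions.

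The clearest gained regions were fixed by their mean percentile among those gained in both settings, and they were of very unlike kinds. The highest, chr16:31852998-31853346, had percentiles of 2.201, 3.35 and 2.65 in ZT4 L, M and R and a fold over background of 40.1, 36.02 and 31.0, and no peak in any ZT0 library. It had a peak in just 1 of the 12 later libraries, ZT16 L, at a fold of 38.9. The next, chr9:8802220-8802371, 152 bp wide, had percentiles of 2.72, 3.77 and 3.17 and a fold of 23.8, 30.0 and 21.9, no peak in any ZT0 library, and a peak in 1 later library, ZT8 M, at a fold of 22.4. At both places the peak was either near the top of a list or missing from it, also between replicates of a later time point.

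The other 3 named gained regions had peaks in the upper part of the ZT4 lists, at percentiles between 6.46 and 25.9, and 2 of them were called at every later time. At chr5:9717550-9717911 the summit held 27, 14 and 29 fragments in ZT4 L, M and R, and chr6:48460177-48460788 held 33, 18 and 32. Neither had a peak in a ZT0 library, yet each had a peak in all 12 libraries of ZT8 to ZT20, so ZT0 was the only time at which they were not called. With equal numbers of peaks each was called in 3 libraries at ZT8, ZT12 and ZT16 and in 2 at ZT20. The last, chr13:21139516-21140479, 964 bp wide, had 19, 19 and 22 fragments at ZT4 and no peak in a ZT0 library. It was called in 3 libraries at ZT8, in 1 at ZT12, in 0 at ZT16 and in 1 at ZT20, so its calls clustered at ZT4 and ZT8.

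The named lost regions were wider, and some were called at ZT0 almost alone. A missing call does not by itself show that a region was closed. At chr2:5355934-5357330 (1397 bp) no ZT4 library had a peak, whereas the summit held 24, 39 and 29 fragments in ZT0 L, M and R, and of the 12 later libraries just 1, at ZT20, had a peak. At chr3:44396915-44398341 (1427 bp) no ZT4 library had a peak, the ZT0 summits held 26, 32 and 24 fragments, and just 2 later libraries, both of ZT20, had a peak. At these 2 places the calls lay at the end and the start of the circadian cycle and were missing from ZT4 to ZT16.

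With all peaks, the other 3 named lost regions were called again at every later time. The region chr8:17876793-17877469 had no peak at ZT4 and 27, 29 and 25 fragments in ZT0 L, M and R, and it was called in 1, 2, 2 and 2 libraries at ZT8, ZT12, ZT16 and ZT20. The region chr14:9298671-9299757 (1087 bp) had no peak at ZT4 and 24, 36 and 22 fragments at ZT0, and was called in 1, 3, 3 and 2 libraries at the later times. The broad chr4:3587251-3589528 had no peak at ZT4 and 22, 27 and 21 fragments at ZT0. It was called in 2, 3, 3 and 3 libraries later, so its gap lay at ZT4. With equal numbers of peaks the chromosome 8 region was called in 1, 2, 0 and 2 libraries at ZT8, ZT12, ZT16 and ZT20. The chromosome 14 region was then called in 0, 3, 1 and 1 and the chromosome 4 region in 1, 3, 3 and 3.

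The later libraries, which did not choose the gained and lost regions, showed the widest contrast between them at ZT8. At ZT8, 68.2%, 67.9% and 31.1% of gained regions had a peak in libraries L, M and R, against 32.5%, 33.1% and 12.6% of lost regions, and 53.2%, 54.5% and 28.2% of all joined regions. In all 3 ZT8 libraries gained regions were called more often than the average region and lost regions less often. At ZT20, 52.7%, 32.1% and 29.3% of gained and 51.7%, 26.5% and 31.8% of lost regions had a peak.

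The difference between these shares, gained minus lost, was 29.7 ± 9.71 percentage points at ZT8, and the later times gave 6.87 ± 9.33 (ZT12), 10.9 ± 6.23 (ZT16) and 1.401 ± 4.06 (ZT20; SD, n = 3 each). It differed among the 4 times (exact permutation test of the F statistic over all partitions of the 12 libraries, p = 0.0114). With equal numbers of peaks the differences were 29.7 ± 5.46, 2.83 ± 6.17, 5.33 ± 3.62 and -1.79 ± 5.73 points (exact p = 0.00552) and were as large at ZT8 as with all peaks. The exact p was 0.061 when only peaks of −log10 q 5 or more were used and 0.0503 without ZT0 M, with the same order of ZT8 above ZT20. The merged lists of later times gave a like picture, since the ZT8 list held 78.7% of gained and 39.1% of lost regions and the ZT20 list 59.2% and 51.0%.

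**Figure D3:**
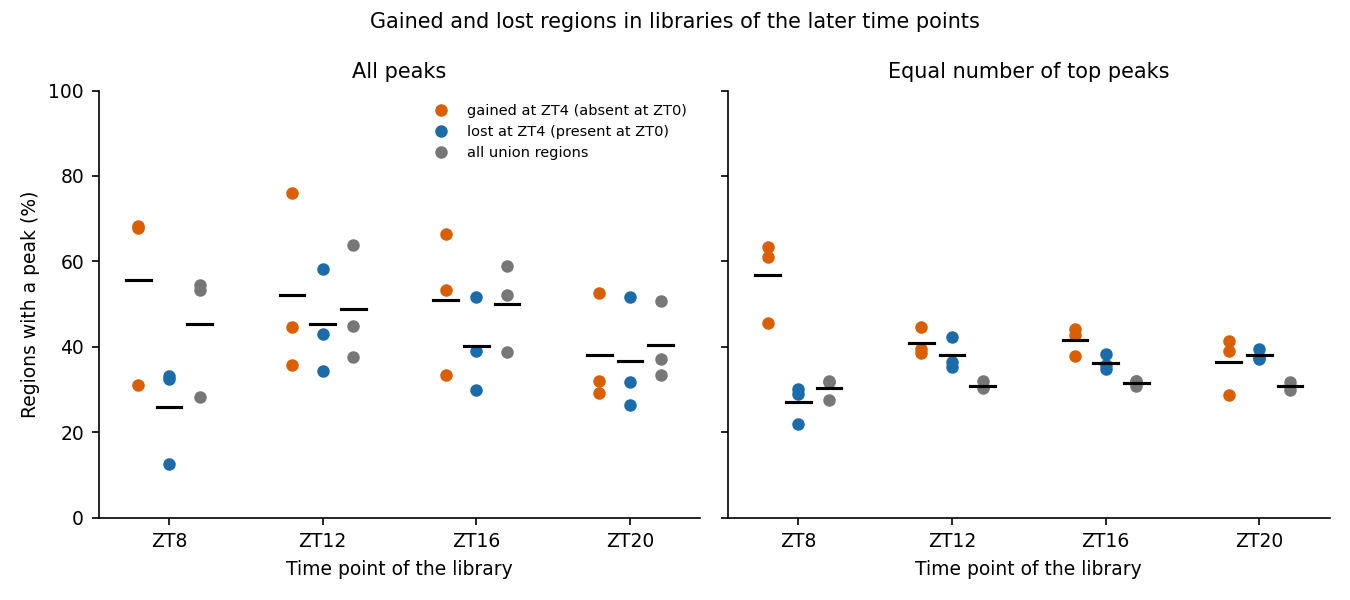
Share of regions with a peak (%) in the 3 libraries of each later time point, for regions gained at ZT4 (orange), regions lost at ZT4 (blue) and all joined regions (grey), with all peaks (left) and with the 7668 highest peaks of each library (right); each point is a library and the bar is the mean. At ZT8 the gained shares stand above the lost shares by 29.7 points in the mean in both panels, and at ZT20 the groups overlap.

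For the regions open in all 6 libraries, height was compared by rank, since list length and scale differ between libraries. In each library the 3563 regions were ranked by −log10 q and turned into normal scores, which have mean 0 and SD near 1, and limma was fitted over all of them, with positive differences meaning higher at ZT4. Of the 3563 regions, 0 (0%) passed an adjusted p under 0.05, with 0.113 as the lowest value. Without adjustment, at p under 0.05, 180 regions were higher (5.05%) and 174 lower at ZT4 (4.88%), 354 in all (9.94%), and with equal numbers of peaks 124 and 113 of 2777. The ranks of the 2 groups did not overlap at 273 regions that were higher (7.66%) and 236 that were lower (6.62%). The median difference in score was 0.246 in size without its sign, and the median standard error of such a difference was 0.294. The median SD between single replicates was 0.396, which is not the error of a difference of means.

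**Figure D4:**
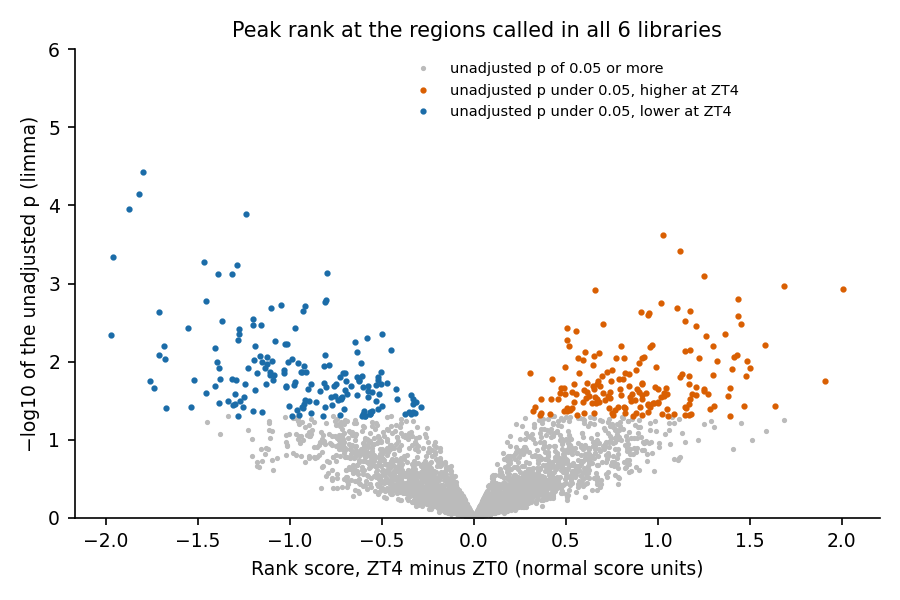
Difference in rank score (ZT4 minus ZT0, normal score units) against −log10 of the unadjusted limma p for the 3563 regions called in all 6 libraries, with the 180 regions higher at ZT4 (orange) and the 174 lower at ZT4 (blue) at an unadjusted p under 0.05 and all others in grey. The cloud is nearly even about 0, the points farthest up lie on the lower side, and 0 regions passed an adjusted p under 0.05.

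The regions of the merged lists with the best rank in their worst library, which were chosen for ranking high in all 6, were chr6:43306656-43306909, chr16:19635153-19635487 and chr13:37139437-37139618. Their percentiles within the whole lists lay between 0.210 and 0.459 in the ZT4 libraries and between 0.245 and 0.685 in the ZT0 libraries. All 3 had a peak in every library of the 6 time points.

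The 3 regions with the smallest p on the lower side were each near the bottom of the shared ranks at ZT4 and above the middle at ZT0. At chr7:15010732-15011291 the percentile among the 3563 shared regions was 90.1, 94.6 and 89.2 in ZT4 L, M and R, against 36.7, 29.3 and 35.5 in ZT0 L, M and R, with 9, 6 and 9 fragments at the ZT4 summits and 22, 31 and 24 at the ZT0 summits. The difference in score was -1.80 with a standard error of 0.142 (limma, adjusted p = 0.113). At chr2:3644483-3646059, 1577 bp wide, the percentile was 94.2, 84.7 and 91.5 at ZT4 and 30.4, 31.7 and 30.9 at ZT0, with 11, 10 and 11 fragments at ZT4 and 29, 35 and 31 at ZT0. At chr15:2381286-2382108 it was 95.8, 97.1 and 90.4 at ZT4 and 37.8, 38.8 and 46.1 at ZT0. In all 3 regions the groups stood far apart and the replicates close together, which a choice by smallest p favours. None passed the adjusted threshold.

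The 3 on the higher side differed less. At chr8:44147636-44147912 the percentile was 46.6, 52.1 and 43.2 in ZT4 L, M and R and 86.3, 81.9 and 81.0 in ZT0 L, M and R, with 15, 12 and 17 fragments at ZT4 and 8, 10 and 9 at ZT0 (score difference 1.03, standard error 0.117, limma adjusted p = 0.172). At chr7:41487667-41488103 it was 35.1, 47.8 and 43.9 at ZT4 and 79.3, 80.5 and 86.2 at ZT0. At chr15:6679795-6680667 it was 79.8, 86.6 and 70.2 at ZT4 and 97.8, 98.7 and 97.6 at ZT0, so this region was among the lowest at both times.

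The later time points placed these 6 regions in different ways. The regions chr2:3644483-3646059 and chr15:2381286-2382108 stayed low. A region without a peak in a later library was given the tied last rank there, so some of these percentiles stand for a missing peak. The median percentiles of the chromosome 2 region were 86.7, 89.5, 94.8 and 78.2 at ZT8, ZT12, ZT16 and ZT20, and those of the chromosome 15 region 95.004, 95.03, 96.3 and 80.6, so that ZT0 was the time at which they ranked highest. The chromosome 15 region had no peak in 2, 2, 1 and 0 of the 3 libraries of these times, and its ZT12 and ZT16 medians are such last ranks. The region chr8:44147636-44147912 had median percentiles of 43.7, 63.8, 56.8 and 68.7 at ZT8, ZT12, ZT16 and ZT20, highest in rank at ZT8 and ZT4. The region chr7:41487667-41488103 had medians of 89.8, 79.3, 73.0 and 81.0, highest in rank at ZT4 alone. Between these lay chr7:15010732-15011291, with medians of 74.2, 68.0, 61.6 and 67.5, and chr15:6679795-6680667 stayed near the bottom, with medians of 93.4, 95.03, 96.3 and 92.1, of which those of ZT12 and ZT16 are last ranks as well. These orders were read after the regions were chosen on ZT4 and ZT0 and are a description.

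**Figure D5:**
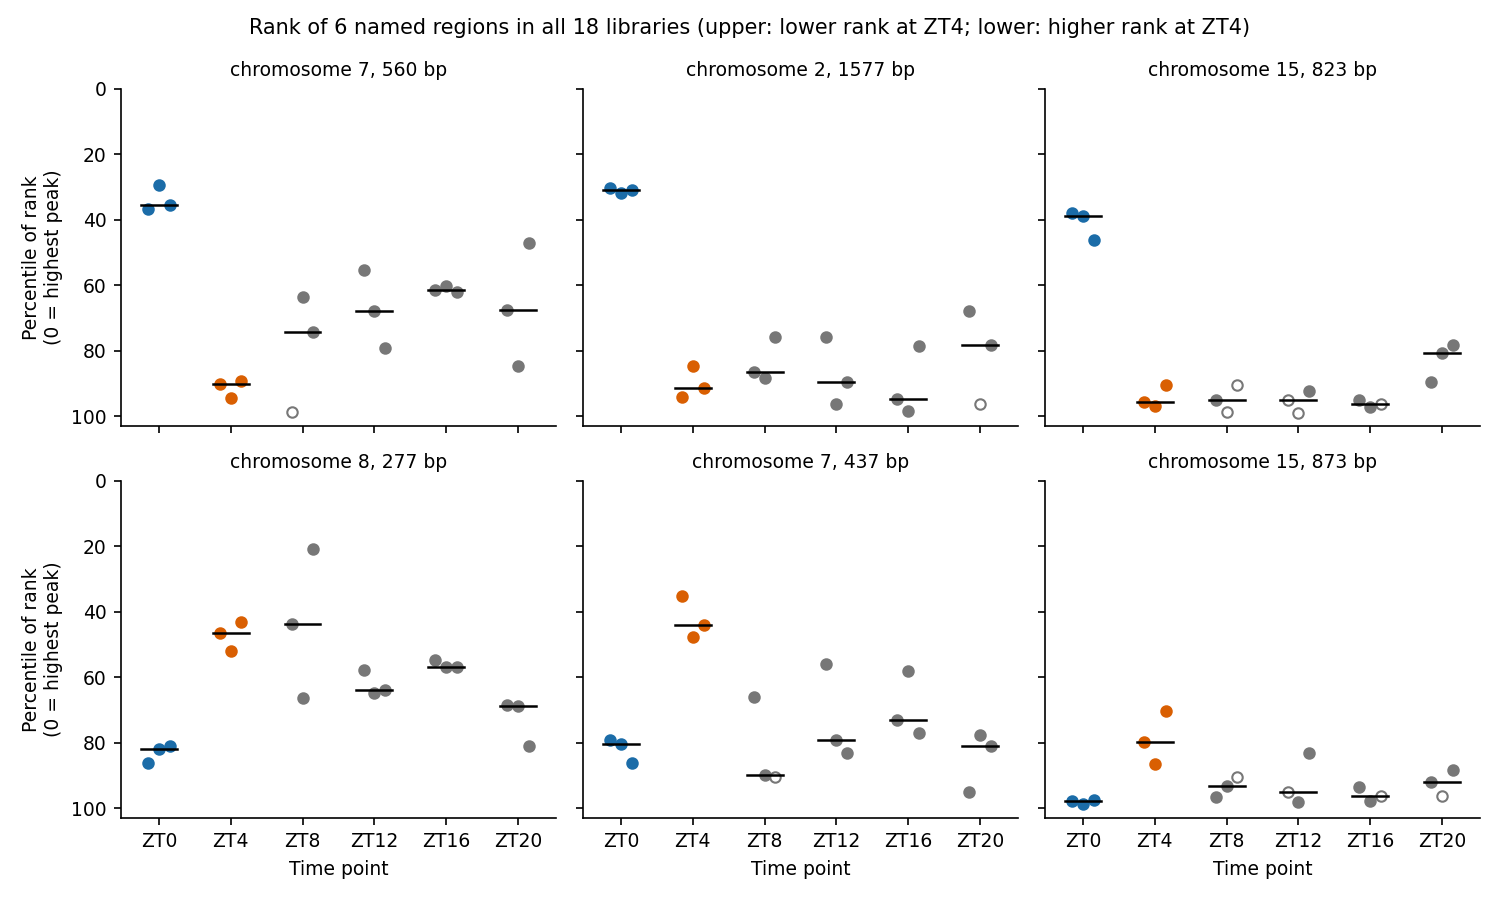
Percentile of rank among the 3563 shared regions (0 is the highest peak, axis reversed) of the 6 named regions in the 18 libraries, for the regions of lower rank at ZT4 (upper panels) and of higher rank at ZT4 (lower panels), with ZT0 in blue, ZT4 in orange and later time points in grey. Each point is a library, open where it had no peak, and the bar is the median; in the upper panels the ZT0 points lie between 29.3 and 46.1 and the ZT4 points between 84.7 and 97.1.

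Heights on the scale of fold over background gave 3 regions past the threshold, all lower at ZT4. This alternative, with log2 fold centred on each library's median over the shared regions, called 0 regions higher and 3 lower. At chr9:49206760-49207619 the fold was 5.44, 6.13 and 4.71 in ZT4 L, M and R and 10.3, 13.7 and 12.1 in ZT0 L, M and R (log2 difference -1.21, limma adjusted p = 0.0060). At chr15:50436240-50437129 the fold was 7.08, 4.80 and 8.04 at ZT4 and 11.5, 13.3 and 13.0 at ZT0 (-1.01, limma adjusted p = 0.0219). At chr14:9280249-9280636 it was 8.05, 6.16 and 5.61 at ZT4 and 8.84, 18.4 and 13.7 at ZT0 (-1.06, limma adjusted p = 0.0340). On ranks, the adjusted p of the same regions was 0.329, 0.217 and 0.355 by limma, so the call rested on the scale.

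With only peaks of −log10 q 5 or more, the ranks called 1 region, also lower at ZT4. This was chr8:13522156-13523243, with percentiles of 77.8, 72.0 and 80.1 at ZT4 and 33.3, 32.9 and 25.8 at ZT0 (limma adjusted p = 0.0406 under that setting and 0.113 with all peaks). Of these 4 regions, which were singled out after the calls were seen, chr9:49206760-49207619 had the plainest course. Its percentiles were 90.4, 60.7 and 96.8 at ZT4 and 24.8, 17.6 and 19.3 at ZT0, and its medians were 85.1, 60.9, 28.2 and 26.1 at ZT8, ZT12, ZT16 and ZT20, so it was low in rank at ZT4 and ZT8 and high from ZT16 to ZT0.

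The 2 rank lists differed in width, as the all-or-none lists did. Of the 174 regions lower at ZT4, 17.2% were at least 1000 bp wide, against 5% of the 180 regions higher at ZT4 and 6.76% of all shared regions. The median widths were 613, 553 and 537 bp. The outer parts of chromosomes held 79.9% of the lower, 78.3% of the higher and 73.0% of all shared regions. Since 0 regions passed the adjusted threshold, these shares describe lists set at an unadjusted p.

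In the later libraries the 2 rank lists stood apart at ZT8. There the median percentile of the lower list was 66.3, 66.7 and 68.4 in libraries L, M and R, and that of the higher list 54.6, 57.0 and 56.6. The lower list thus ranked behind by 11.1 ± 1.23 percentile points at ZT8. At the later times the same difference, lower list minus higher list, was -4.21 ± 2.64 (ZT12), 0.718 ± 2.83 (ZT16) and 0.0210 ± 0.368 points (ZT20; SD, n = 3 each). These lists were set at an unadjusted p after the data were seen, and no test was run on them.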

How the data were processed

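Peak lists of 18 ATAC-seq libraries and 6 merged lists were used. Per the study's methods and the labels, the authors removed adapters, mapped read pairs to Wm82.a2.v1 by Bowtie2 with several alignments kept, brought libraries to a common depth, ran MACS2 per library and on pooled replicates, and kept merged peaks found in both. The methods also name a step that dropped the ACRs of highest signal. Reads from repeats can therefore pile up at more than 1 place. In the library lists the authors deposited, a peak has a position, a summit, the fold over background (a ratio) and the −log10 of its p and q, and in the deposited merged lists a region has a position only. The read number of a library is not given in the sources used here. Unused columns of per-sample values numbered 0, as did identical pairs of library lists.

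Regions were joined where they overlapped or touched. Fragments at a summit and the background were recovered from fold and −log10 p where −log10 p was under 50, and whole numbers met both values for at least 99.7% of peaks of a library (tolerance 0.002 on −log10 p). Library values were compared by exact permutation tests, with Benjamini-Hochberg adjustment over 8 measures and a threshold of 0.05. Ranks were fitted with limma 3.58.1 in R 4.3.3, tested on simulated data; the rest used Python 3.11.15, numpy 2.4.6, pandas 2.3.3, scipy 1.17.1, statsmodels 0.14.6 and matplotlib 3.10.9. Chromosome length was taken as the farthest peak end. Alternatives were equal numbers of peaks (7668, the shortest list), −log10 q 5 or more, the upper 50% by height, 50% of a region covered, regions joined from library peaks and seen in at least 2 libraries, the replicate block, percentiles in the whole list, log2 fold, and each library left out.

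The regions to compare and the lists were chosen with earlier results of these data known. The rule for naming was the 3 regions of smallest p in each direction (none passed the adjusted threshold), the 5 gained and 5 lost in both peak settings with the best mean percentile, the 3 with the best worst-library percentile and the 3 widest of each merged list. Other regions named in the text were chosen after their values were seen. The share of wide peaks, the split of gained and lost regions, counts at an unadjusted p and the rank lists in later libraries were added after seeing the data.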

Additional observations from a re-analysis of the deposited data

Results flagged for a closer look

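Regions built from the 6 library lists instead of the merged lists showed a set of peaks that the comparison above does not hold. Of 3633 such regions with a peak in all 6 libraries, 74 (2.04%, Wilson 95% interval 1.63 to 2.55%) overlapped neither the ZT4 nor the ZT0 merged list. They stand here because they carry signal in every library and lie outside the lists that were compared. Of the 74, 60 (81.1%) were in the upper 1% of all 6 library lists, against 0.450% of the regions inside the merged lists, and the median of their mean percentile was 0.333 against 23.4. Among regions of all-or-none calls, 37 of 611 gained (6.06%) and 18 of 168 lost regions (10.7%) lay outside both merged lists. The study's methods name a step that dropped the ACRs of highest signal. Whether that step was applied to the deposited merged lists is not given in the sources used here, and its part in these 74 was not tested.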

How the results depend on the processing

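Counts of all-or-none regions, differences in list length and counts at an unadjusted p moved with the processing. The peak number difference was 4128, 1386 at −log10 q 5 or more and 2879 to 5679 with a library left out, and the covered length difference 1.03 Mb, 0.030 Mb with equal numbers and 0.425 Mb at −log10 q 5 or more. Regions gained at ZT4 were 208 with equal numbers of peaks, 251 at −log10 q 5 or more and 689 to 1641 with each library left out (903 without ZT4 L, 1641 without ZT4 M, 979 without ZT4 R, 1123 without ZT0 M), and regions lost were 255 with equal numbers and 176 to 432 (274 without ZT4 L, 263 without ZT4 R, 432 without ZT0 L, 307 without ZT0 R). The gained share of all-or-none regions was 44.9%, 71.1% at −log10 q 5 or more, 72.6% with 50% of a region covered and 61.5 to 90.3% with a library left out. Leaving out a library loosens the rule to 2 libraries at 1 time point. Some library measures changed sign, each with an exact permutation p far from the threshold: median peak width (8 bp with equal numbers), share of peaks in the outer 25% of chromosomes (0.241 points at −log10 q 5 or more, -1.58 to 0.303 with a library left out) and width at shared regions (-5.83 to 24.3 bp with a library left out). The summit distance also did (-0.333 bp at −log10 q 5 or more and in the upper 50%, -0.278 bp with 50% covered). The rank fit called 1 lower region at −log10 q 5 or more and 3 on log2 fold. At an unadjusted p it gave 90, 71 and 375 higher regions (−log10 q 5 or more, 50% covered, percentile in the whole list) and 85, 62 and 57 lower, with 113 lower for equal numbers. Percentiles in the whole list put 86.8% of such regions on the higher side, against 50.8% on shared ranks. The exact permutation test of the F statistic over the 4 later times gave p = 0.061 at −log10 q 5 or more and p = 0.0503 without ZT0 M. No test was run on ZT8 against ZT20 alone. The gained minus lost share, ZT8 minus ZT20, was 28.3 points, 25.3 at −log10 q 5 or more and 20.2 to 24.3 with a library left out (23.7 without ZT0 M). For the rank lists the same contrast was 11.04 points, 7.64 with 50% covered and 9.74 to 14.6 with a library left out. The cause of these changes was not tested. Of 30 call settings of named regions 29 and of 60 rank settings all 60 kept their side; the exception was chr4:3587251-3589528, called in 2 fewer ZT4 than ZT0 libraries with 50% covered.

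Deviations of same-letter libraries correlated at -0.0163, -0.0104 and -0.0227, and those of other-letter libraries at -0.00801 to 0.0249. Replicate letters thus showed no pairing in this measure, which cannot show whether the samples were paired by design. With the letter as a replicate block limma called 0 regions (177 higher and 182 lower at an unadjusted p, smallest adjusted p = 0.386), and with equal numbers of peaks as well 0 (120 and 121). For library measures the block cannot give an exact p below 0.25. A low fragment number at a summit (medians of 8 to 10) limits which calls can be told apart.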

Other observations

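High peaks that come and go between libraries were not confined to the 2 gained regions on chromosomes 16 and 9. Of 878 joined regions that lay in the upper 5% of a list in at least 1 of the 6 libraries, 107 (12.2%) had no peak in at least 1 other of them, and 47 had a peak in 3 or fewer. Of the 107, 26 had peaks at ZT4 only and 4 at ZT0 only. Just 2 were called in 3 of 3 ZT4 libraries and none of the ZT0 libraries, and 0 the other way round. Among all 22443 joined regions, 7726 had peaks at ZT4 only and 2952 at ZT0 only, and 573 (2.55%) were gained and 151 (0.673%) lost. With all peaks, an excess at ZT4 was thus not particular to high peaks. With equal numbers of peaks, the excess among all joined regions did not hold throughout. Regions called in 1 library of a single time point then numbered 2522 at ZT4 and 2516 at ZT0. Those called in 2 numbered 731 and 635, and those called in 3 numbered 208 and 255. The count of high peaks was made after the data were seen, and its cause was not tested.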
